A study of Mus musculus with 9 samples.

Results

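The stathmins and the structural and plus-end microtubule-associated proteins were examined as 10 genes, taken by symbol from the 24421 rows of the gene count table: Stmn1, Stmn2, Stmn3, Stmn4, Map1b, Map2, Map4, Mapt, Mapre1 and Mapre3. All 10 were found. Their RNA was read in 9 libraries, 3 per group. The control and BAL101553 groups were SB28 mouse glioma cells grown in the brains of C57BL/6 mice and recovered by sorting for GFP, without CD45 and CD11b. SB28 is a single glioma line that carries GFP and luciferase. BAL101553 (lisavanbulin) is the prodrug of BAL27862, a small molecule that binds tubulin and disrupts microtubules, and the control mice received vehicle. Tumours of treated mice were harvested later after implantation than those of controls, to match tumour volume, so treatment and time of growth cannot be told apart. The third group is labelled astrocytes from BAL101553-treated mice of the same strain, and how these cells were isolated is not given in the sources used here. The labels call the control and BAL101553 samples whole tissue, although the study's methods describe sorted cells. The study also describes fewer biological replicates per group than the 3 the labels give, so it is not clear which of these libraries its account of sorting and harvest covers; it is applied here to all 6. Mice were 6 to 8 weeks old when implanted. The question was how a drug that acts on microtubules was accompanied by changes in the RNA of the proteins that bind them, and how these genes differ between the tumour cells and the astrocyte-labelled cells.

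Microtubules grow and shrink from their ends by adding and losing dimers of alpha and beta tubulin. Stathmins bind free tubulin dimers and promote microtubule shrinkage, and their binding is switched off by phosphorylation, as happens in mitosis. Structural microtubule-associated proteins (MAPs) coat the lattice and stabilize it: MAP2 in dendrites, tau (Mapt) in axons and also in oligodendrocytes, MAP1B in growing neurites, and MAP4 in most dividing and non-neuronal cells. End-binding proteins, EB1 (Mapre1) and EB3 (Mapre3), track growing plus ends and recruit other proteins there. EB1 protein has been studied as a marker of response to this drug in glioblastoma.

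The 4 stathmins share their tubulin-binding domain, so a stretch of the coding sequence was compared between them to show how far short reads can tell the genes apart. The 60 bases below are aligned without gaps, at positions 241 to 300 of the Stmn1 coding sequence (447 bases), 343 to 402 of Stmn2 (537 bases), 346 to 405 of Stmn3 (540 bases) and 454 to 513 of Stmn4 (648 bases). Capitals mark the 41 bases identical in all 4 genes, read 5′ to 3′ from the GENCODE annotation of GRCm38.
Stmn1: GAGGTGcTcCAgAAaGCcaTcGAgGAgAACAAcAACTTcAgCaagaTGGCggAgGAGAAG
Stmn2: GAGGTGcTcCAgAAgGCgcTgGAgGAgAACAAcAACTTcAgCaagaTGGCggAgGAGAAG
Stmn3: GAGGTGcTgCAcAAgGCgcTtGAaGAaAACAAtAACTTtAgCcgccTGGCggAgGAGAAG
Stmn4: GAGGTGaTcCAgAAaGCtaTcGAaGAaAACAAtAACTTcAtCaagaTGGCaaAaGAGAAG
In this window Stmn2 matched Stmn1 at 56 of 60 bases, Stmn4 at 51 and Stmn3 at 46. Over whole transcripts the longest identical run was 43 bases, between Stmn1 and Stmn2, and 16 to 21 bases for every other pair. All were shorter than the 50-base reads the study describes. No 50-base stretch was shared between any 2 of the 10 members. Stmn1 was the exception against other genes: 18.9% of its 50-base stretches also occur elsewhere, almost all in another annotated gene, Gm11223. How many Stmn1 reads fell in these stretches was not measured, so its counts are uncertain by an unknown amount. The share of stretches found elsewhere was 1.71% for Mapre1 and under 1% for the rest.

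The libraries held 22919523 to 34013875 counted reads. Levels below are CPM (read counts scaled to a common library size) after TMM scaling over the 9 libraries, and differences are log2 fold changes from edgeR's quasi-likelihood test fitted to all genes within the 6 libraries compared, with Benjamini-Hochberg adjustment and a threshold of 0.05. The study calls its replicates biological, but the labels do not say whether these libraries came from separate mice, so p-values measure the spread between these libraries. Marker genes were read beside the members. In the 6 tumour libraries Ptprc and Itgam, the genes of the sort gate, summed to 0.206 to 0.513 CPM. Markers of microglia and macrophages summed to 42.6 to 56.1 CPM, of oligodendrocytes to 15.3 to 20.6, of neurons to 43.3 to 90.4 and of new neurons to 50.4 to 85.2. The sums of these lists overlapped between control and BAL101553 libraries. Endothelial markers summed to 739 to 866 CPM in control and 515 to 645 in BAL101553 libraries, without overlap. The astrocyte-labelled libraries held 12078 to 14808 CPM of 8 astrocyte markers, against 940 to 971 in control and 681 to 797 in BAL101553 libraries, again without overlap. Whether these differences between the tumour groups lay in SB28 cells or in other cells was not tested. A sum does not speak for each gene of its list. Of the 8 astrocyte markers 5 could be tested between the tumour groups. Of these, 1 was called higher and 1 lower in BAL101553 libraries, with a median log2 fold change of 0.18, opposite to the sum. Of the 5 endothelial markers 0 were called higher and 1 lower, with a median of -0.52. Of all genes tested 14.7% were called. The astrocyte-labelled libraries also held 10282 to 12723 CPM of 6 oligodendrocyte markers, 586 to 1198 of microglia and macrophage markers, 159 to 185 of endothelial markers, 56.3 to 59.5 of neuron markers and 31.7 to 34.4 of new neuron markers. By these markers the libraries labelled astrocytes did not hold astrocyte RNA alone. Although the endothelial sum was lower there than in BAL101553 libraries, 3 of its 5 genes were called higher and 1 lower. Their median log2 fold change was 3.23, and 46.3% of all genes were called higher and 38.9% lower.

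In SB28 cells, BAL101553 was not accompanied by a called change in any of the stathmins, MAPs or end-binding proteins. Of the 10 genes, 9 could be tested and 0 were called by edgeR, against 14.7% of all 12633 genes tested (8.64% higher and 6.09% lower). None of the 9 had an unadjusted p under 0.05 in this edgeR fit, against 34.1% of all genes. With DESeq2, which also called 0 of them, 1 had an unadjusted p under 0.05. With limma, median-of-ratios or upper quartile scaling, or all 9 libraries in 1 model, 1 also had. So it was in some fits without single libraries. In an edgeR fit with an offset for transcript length and GC content, 2 had. Their median log2 fold change was -0.05, beside 0.02 for all genes tested, and their values ran from -0.57 for Mapt to 0.35 for Map1b. In bulk RNA, fewer cells of a type and less RNA per cell cannot be told apart. The 15 genes of dividing cells, none of them called, summed to 1513 to 1643 CPM in control and 1393 to 1616 in BAL101553 libraries.

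**Figure D1:**
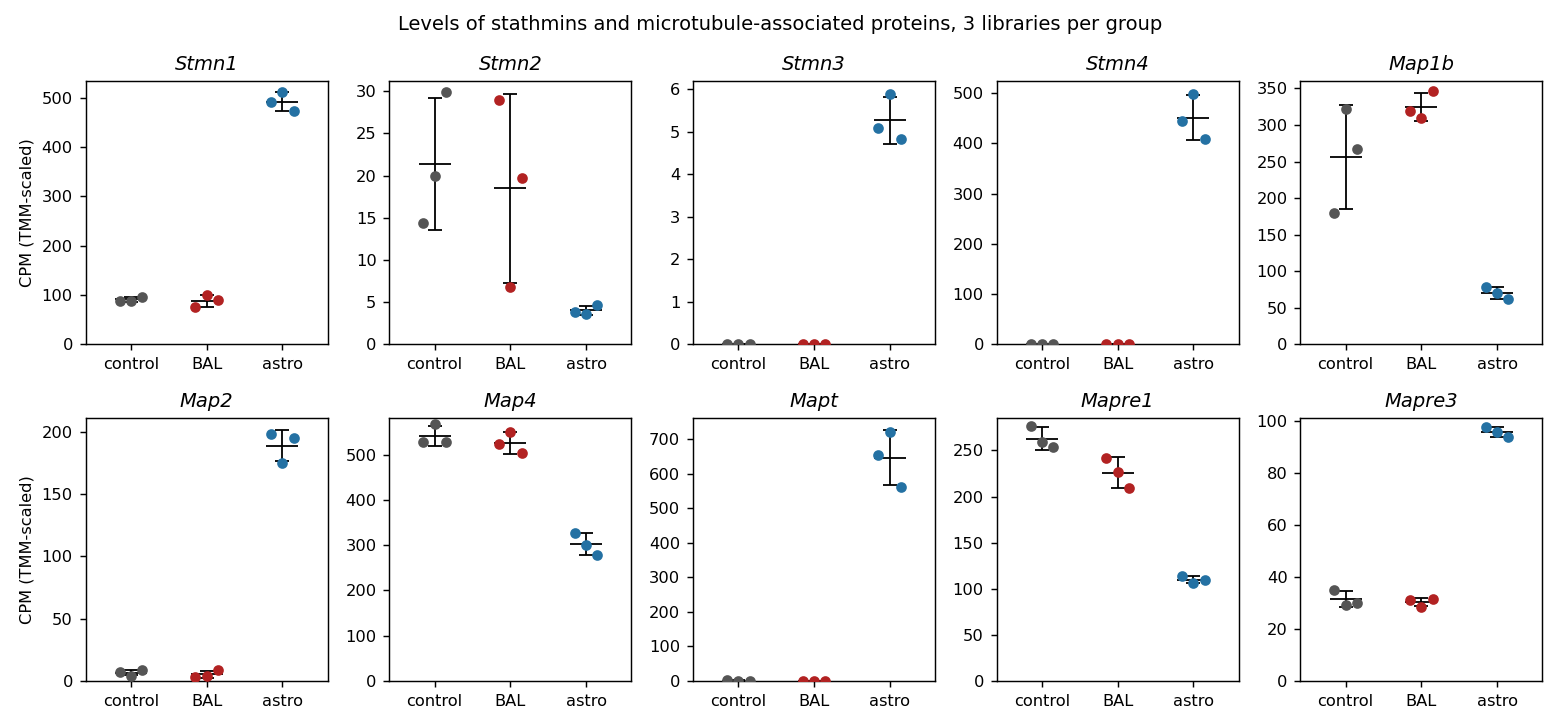
Level of each gene in CPM (TMM-scaled) in the 3 control, 3 BAL101553 (BAL) and 3 astrocyte-labelled (astro) libraries. Points are libraries and bars are the mean and SD; each panel has its own axis from 0, and Stmn3 was at 0 in all 6 tumour libraries.

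Stmn1 (chr4:134468320-134473843, plus strand), the ubiquitous stathmin of dividing cells, was the leading stathmin in the tumour. Its level was 88.5, 87.6 and 96.4 CPM in control and 75.3, 99.2 and 88.7 CPM in BAL101553 libraries. The groups overlapped, and the log2 fold change was -0.04 ± 0.12 (SE, 3 against 3, adjusted p = 0.815 by edgeR) with a 95% interval of -0.31 to 0.22.

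Stmn2 (chr3:8509360-8561606, plus strand), a membrane-anchored stathmin known from growing axons, had a wide spread among replicates. It stood at 14.4, 19.9 and 29.9 CPM in control and at 29.0, 6.75 and 19.7 CPM in BAL101553 libraries. The second BAL101553 library was low and the ranges overlapped widely. The log2 fold change was -0.21 ± 0.47 (SE), with an interval of -1.30 to 0.88, so a difference of either sign lay within the error.

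The other stathmins were scarce or absent in SB28 cells. Stmn3 (chr2:181306459-181314500, minus strand), a neuronal stathmin, had 0 reads in each of the 6 tumour libraries. A count of 0 allows up to 3 counts per library, which is 0.0884 to 0.135 CPM; these limits and all count-based bounds cover counting error only. Stmn4 (chr14:66344296-66361680, plus strand), a stathmin of neural tissue, had 12, 9 and 9 reads in control and 6, 14 and 20 reads in BAL101553 libraries, or 0.205 to 0.589 CPM over all 6. Its log2 fold change was 0.11 ± 0.48 (SE).

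Among the MAPs, Map4 (chr9:109931460-110083955, plus strand), the widely expressed member, varied little between libraries. It stood at 528, 567 and 528 CPM in control and 523, 551 and 503 CPM in BAL101553 libraries. The log2 fold change of -0.04 ± 0.09 (SE) had an interval of -0.24 to 0.17 and an adjusted p of 0.799 in the edgeR fit. With the length and GC offset it was -0.29 (adjusted p = 0.0655 by edgeR).

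Map1b (chr13:99421446-99516540, minus strand), a MAP of growing neurites, had the highest positive value of the 9 tested genes. Control libraries gave 180, 322 and 267 CPM, and BAL101553 libraries 319, 310 and 346 CPM. The first control library was the low one, and the second control library lay within the treated range. The log2 fold change of 0.35 ± 0.19 (SE) did not pass the test (adjusted p = 0.227 by edgeR, interval -0.08 to 0.79). It was 0.15 without control replicate 1 and 0.11 with the length and GC offset.

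The neuronal MAPs were low. Map2 (chr1:66175273-66442583, plus strand), the dendritic MAP, stood at 7.18, 4.13 and 8.38 CPM in control and 3.39, 3.83 and 8.72 CPM in BAL101553 libraries. Mapt (chr11:104231390-104332090, plus strand), which encodes tau, had 34, 15 and 23 reads in control and 26, 7 and 29 reads in BAL101553 libraries, so its level never passed 1.53 CPM. For both genes the groups overlapped. The log2 fold changes were -0.29 with an interval of -1.24 to 0.65 for Map2, and -0.57 with an interval of -1.77 to 0.64 for Mapt.

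Mapre1 (chr2:153741274-153773310, plus strand), which encodes EB1, was the only tested member whose groups did not overlap. It stood at 277, 259 and 254 CPM in control and 242, 227 and 209 CPM in BAL101553 libraries, the latter lower in 3 of 3. The log2 fold change was -0.21 ± 0.09 (SE), with an interval of -0.43 to 0.00, an unadjusted p of 0.0514 and an adjusted p of 0.149 by edgeR. Groups did not overlap in 39.7% of all genes tested, 19.6% in the lower direction, so 1 of 9 members is no more than that background. With an offset for transcript length and GC content the value was -0.35 and passed the threshold (adjusted p = 0.0400 by edgeR), in a fit where the median of all genes lay at -0.07 and more genes were called lower (1270) than higher (765).

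Mapre3 (chr5:30814641-30866106, plus strand), which encodes EB3, did not separate the groups. Its level was 35.1, 29.3 and 29.9 CPM in control and 31.0, 28.4 and 31.7 CPM in BAL101553 libraries. The log2 fold change was -0.05 ± 0.11 (SE), with an interval of -0.31 to 0.22.

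The direction of the small differences was not stable. Under total library size scaling, which set the median of all genes at 0.10, Stmn1 (0.04), Map4 (0.05) and Mapre3 (0.04) turned positive, and the split of all called genes moved from 1091 higher and 769 lower to 1456 and 425. Map1b stayed positive and Mapre1 negative in all 26 alternative fits run.

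**Figure D2:**
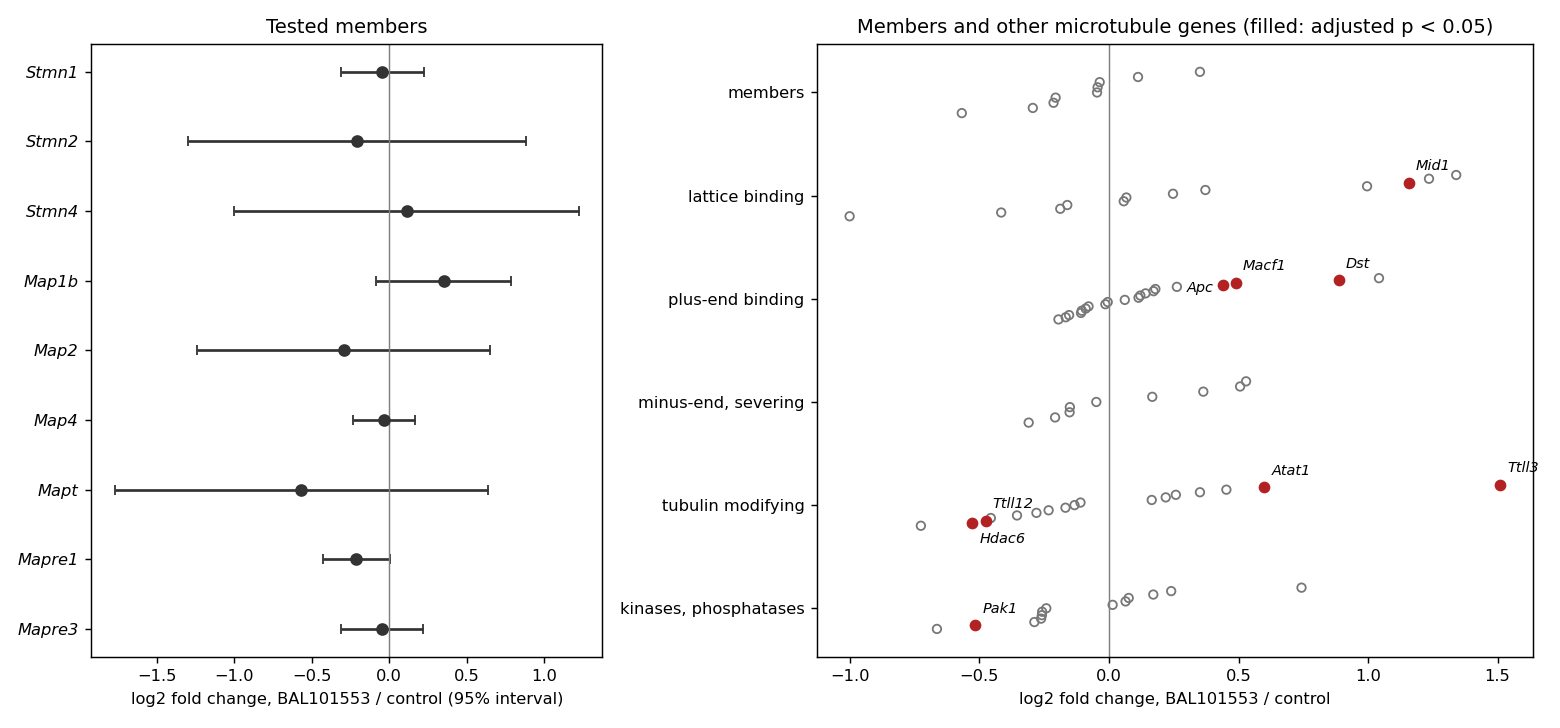
Left, log2 fold change of BAL101553 over control with its 95% interval for the 9 tested members. Right, the same log2 fold change for the members and for 71 other microtubule genes in 5 lists, each circle a gene and filled red where the adjusted p was under 0.05; no member is filled, and Ttll3, Mid1 and Dst lie farthest right among the filled genes.

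Levels of different genes were compared per kilobase of exon, with the exons of all annotated transcripts of a gene joined. Joined exons can be longer than any single transcript, and which transcripts were present was not measured. The order of genes and the family shares depend on this choice of length. In control SB28 cells the order was Stmn1 (47.2 ± 2.51 CPM per kb, SD, n = 3), Map4 (35.7 ± 1.49), Mapre1 (33.7 ± 1.56), Map1b (16.2 ± 4.52), Mapre3 (9.10 ± 0.922), Stmn2 (3.82 ± 1.40), Map2 (0.399 ± 0.133), Stmn4 (0.219 ± 0.0547), Mapt (0.136 ± 0.0638) and Stmn3 (0). Neighbours whose libraries overlapped were Map4 and Mapre1, Map2 and Stmn4, and Stmn4 and Mapt. In BAL101553 libraries the order of the means was the same, from Stmn1 at 45.7 ± 6.23 to Mapt at 0.0894 ± 0.0457. There Map4 and Mapre1 no longer overlapped (33.2 to 36.4 against 26.8 to 31.0 CPM per kb), while Map2, Stmn4 and Mapt still did, each with its neighbour. Stmn1 made up 92.2% ± 2.06 of stathmin RNA per kb in control and 92.6% ± 4.53 in BAL101553 libraries, Map4 98.5% ± 0.539 and 98.8% ± 0.624 of the Map2, Map4 and Mapt sum, and Mapre1 78.8% ± 0.952 and 76.7% ± 1.88 of the Mapre1 and Mapre3 sum (SD, n = 3).

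**Figure D3:**
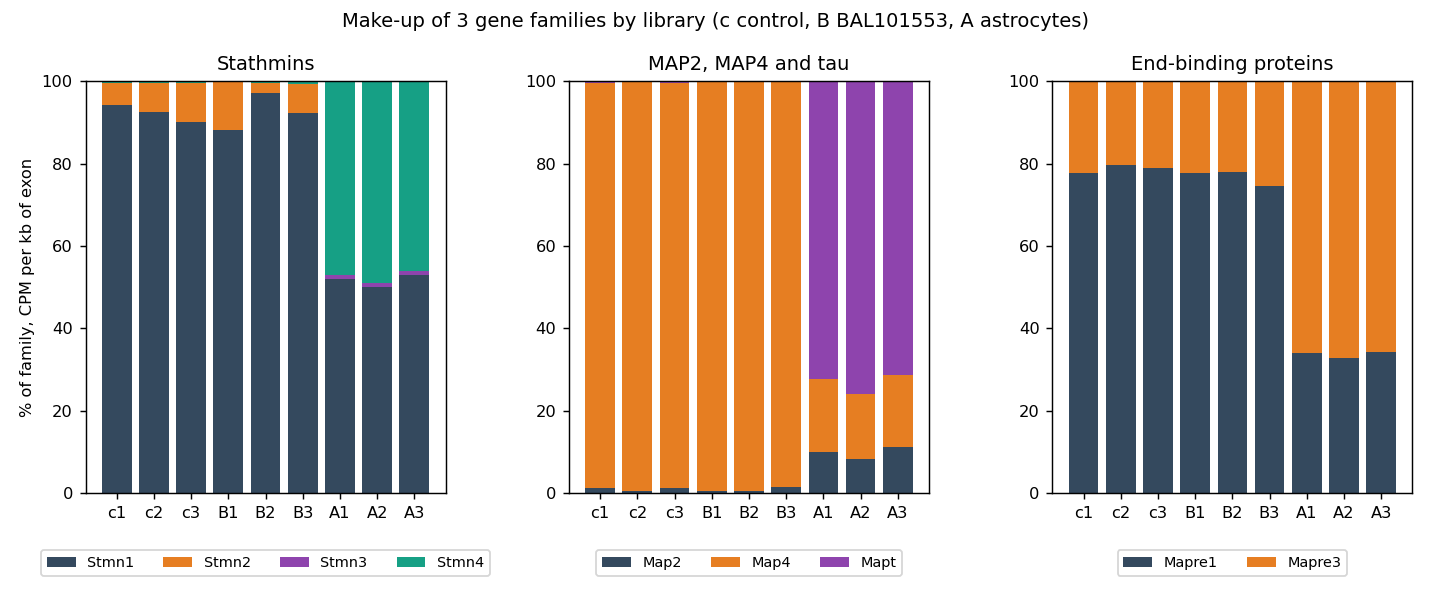
Share of each gene in the per-kilobase RNA of its family, in percent, for each of the 9 libraries (c control, B BAL101553, A astrocyte-labelled). Stmn1, Map4 and Mapre1 fill most of each tumour bar, while in the astrocyte-labelled bars Stmn4 is close to Stmn1, and Mapt and Mapre3 hold the largest shares.

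Tubulin, which the drug binds, was read beside its partners. Of 12 alpha and beta tubulin genes, 6 were called lower and 0 higher, beside 6.09% of all genes lower and 8.64% higher. Their median log2 fold change was -0.52. Whether these 6 calls held without single libraries or under other settings was not tested. Their summed level was 6343, 5550 and 5859 CPM in control and 3868, 3885 and 3438 CPM in BAL101553 libraries. That is a difference of -0.67 on the log2 scale. The ratio of stathmin to tubulin reads within a library needs no scaling between libraries. Summed Stmn1 to Stmn4 reads were 1.63, 1.94 and 2.16 per 100 tubulin reads in control and 2.70, 2.74 and 3.17 in BAL101553 libraries. All treated values lay above all control values, and the ratio was 1.51-fold higher (0.59 on the log2 scale), with an exact permutation p of 0.10, two-sided, the smallest that 3 against 3 can give. The lower tubulin sum raises any such ratio: over 12588 other genes the median difference was 0.67, and 76.5% of them were higher over tubulin without overlap. The stathmin ratio thus moved no more than that of a typical gene. Against alpha tubulin alone the difference was 0.65 and against beta tubulin alone 0.56 on the log2 scale.

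The same ratios for the other members were computed after the levels had been seen. The summed MAPs stood at 11.3, 16.1 and 13.7 reads per 100 tubulin reads in control and 21.9, 22.3 and 25.0 in BAL101553 libraries, a difference of 0.76 on the log2 scale. The end-binding genes stood at 4.92, 5.19 and 4.85 in control and 7.06, 6.58 and 7.01 in BAL101553 libraries, a difference of 0.47. Neither pair of groups overlapped. The MAP difference lay above, and the end-binding difference below, the median of 0.67 for other genes over the same tubulin sum. How widely those genes spread around their median was not measured.

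**Figure D4:**
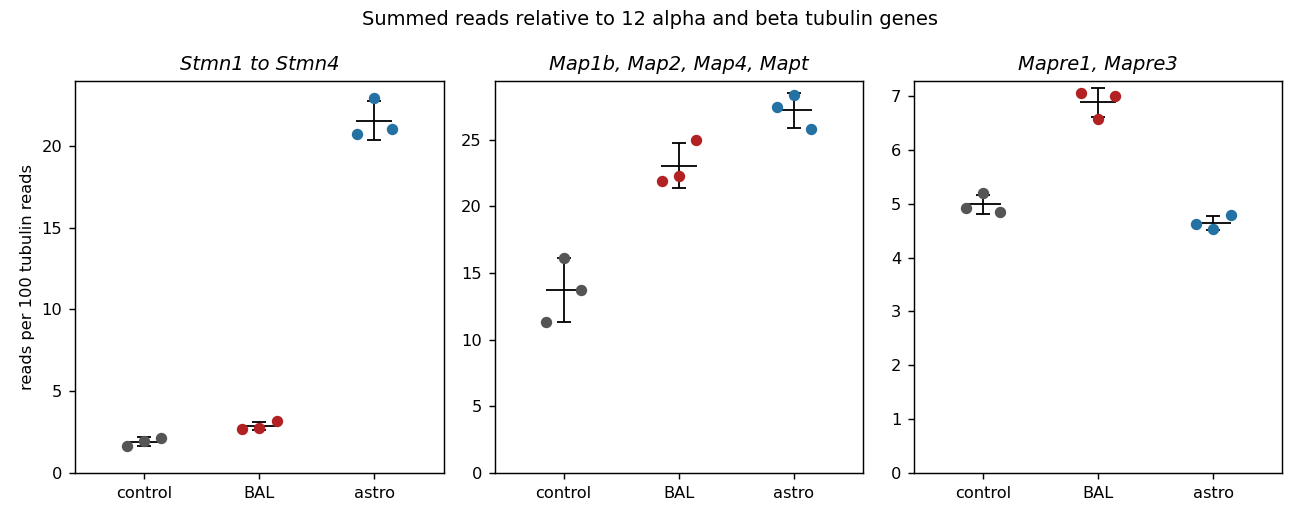
Reads of the stathmins (left), the 4 MAPs (middle) and the end-binding genes (right) per 100 reads of 12 alpha and beta tubulin genes in each library, with mean and SD; axes start at 0. In each panel the 3 BAL101553 points lie above the 3 control points, by 1.51-fold for the stathmins, as did 76.5% of 12588 other genes over the same tubulin sum.

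Other genes that act on microtubules were counted in 5 lists, of which 82 of 83 genes were in the table and 71 were tested. Of these, 9 (12.7%) were called, 6 higher and 3 lower, near the 14.7% of all genes. Among 12 tested lattice-binding proteins 1 was higher, among 20 plus-end proteins 3 were higher, among 9 minus-end and severing proteins 0 were called, among 17 tubulin-modifying enzymes 2 were higher and 2 lower, and among 13 kinases and phosphatases 1 was lower. The median log2 fold change was 0.16, 0.09, -0.05, -0.13 and -0.24 in these lists, in that order.

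The largest called difference was in Ttll3, which adds glycine to tubulin tails. It rose from 2.56, 2.61 and 2.57 CPM in control to 7.70, 6.23 and 8.04 CPM in BAL101553 libraries, a log2 fold change of 1.51 ± 0.19 (SE, adjusted p = 0.00728 by edgeR). Mid1, a microtubule-bound ubiquitin ligase, rose from 17.7, 20.9 and 22.4 to 34.6, 52.5 and 48.5 CPM (log2 fold change 1.16 ± 0.17, adjusted p = 0.0104). Dst, a large linker of microtubules to the actin and intermediate filament networks, rose from 392, 482 and 451 to 790, 776 and 873 CPM (0.89 ± 0.11, adjusted p = 0.00728). These 3 genes were called in each of the 6 fits that left out 1 library, but of the 9 fits without 1 library in both groups Ttll3 lost its call in 6 and Mid1 and Dst in 5 each. With the length and GC offset the log2 fold change of Dst was 0.44 (adjusted p = 0.0219 by edgeR).

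The remaining calls were smaller and depended on single libraries, and all but that of Hdac6 also on other settings. Macf1, a spectraplakin related to Dst, rose by 0.49 on the log2 scale (193 ± 16.7 to 270 ± 20.5 CPM, SD, n = 3), and Apc, a tumour suppressor that also binds plus ends, by 0.44 (93.1 ± 13.9 to 126 ± 3.96 CPM). Atat1, which acetylates alpha tubulin, rose by 0.60 (8.57 ± 0.991 to 12.9 ± 1.25 CPM), whereas Hdac6, a deacetylase of tubulin, had a log2 fold change of -0.53 (142 ± 5.03 to 98.3 ± 11.2 CPM). Ttll12, a member of the tubulin ligase-like family, had a value of -0.48 (215 ± 11.1 to 154 ± 25.2 CPM), and Pak1, a kinase that phosphorylates stathmin, -0.52 (74.2 ± 9.82 to 51.7 ± 4.97 CPM). Of the 6 fits without 1 library, Hdac6 was called in 4 and lost its call without control replicate 1 (adjusted p = 0.0515 by edgeR) or control replicate 3 (0.0764). Macf1 was called in 2 of them, without control replicate 2 and without BAL101553 replicate 2, and its adjusted p rose to between 0.0507 and 0.0914 in the others. Apc and Pak1 kept their calls only without control replicate 2 and Ttll12 only without BAL101553 replicate 1, with adjusted p from 0.0555 to 0.137 in the other fits. Atat1 was called in 0 of the 6 (adjusted p from 0.0574 to 0.141). The length and GC offset gave 0.10 for Macf1 (adjusted p = 0.467 by edgeR), 0.19 for Apc (0.203) and 0.50 for Atat1 (0.0591), ending these calls. Total library size ended those of Ttll12 (-0.39, adjusted p = 0.0863) and Pak1 (-0.43, 0.0616).

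The astrocyte-labelled libraries had a different set of stathmins and MAPs from the BAL101553-treated tumour cells. All 10 members were called, beside 85.1% of all 15314 genes tested, so being called says little about any of them. Of the members, 6 were higher, beside 46.3% of all genes (Stmn1, Stmn3, Stmn4, Map2, Mapt, Mapre3) and 4 lower, beside 38.9% (Stmn2, Map1b, Map4, Mapre1). The call of Stmn3 was fixed by the filter on low counts, as set out below. Among the 12550 genes also tested between the tumour groups, 4390 were called higher and 5954 lower. The comparison with the astrocyte-labelled libraries uses the same 3 BAL101553 libraries as the one above. The median of all genes was 0.18 on the log2 scale and ranged from -0.62 (length and GC offset) to 0.39 (total library size) with the scaling, and all members but Stmn3, which was not recomputed, kept their direction in the alternatives in which they were tested (17, or 16 for Stmn4 and Mapt). Sizes moved with the length and GC offset, which gave 1.56 for Stmn1, 0.64 for Mapre3, -1.83 for Map4 and -3.12 for Map1b, against 2.50, 1.67, -0.78 and -2.20. The split of all called genes was 7085 higher and 5954 lower, and with the length and GC offset 5100 and 8439.

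With Stmn3, which was at 0 in the tumour, set aside, the largest differences among the members were in Stmn4 and Mapt. Stmn4 stood at 445, 499 and 409 CPM in the astrocyte-labelled libraries, and no tumour library reached more than 0.131% of their mean (log2 fold change 9.97 ± 0.26, SE, adjusted p = 2.58e-08 by edgeR). Mapt stood at 656, 722 and 563 CPM, and no tumour library reached more than 0.236% of their mean (9.87 ± 0.31). Genes of myelinating cells showed the same contrast: the tumour libraries reached at most 0.0467% of the astrocyte-labelled mean for Mbp, 0.0602% for Mag and 0.542% for Cnp. Astrocyte genes did so too, at most 0.0311% for Slc1a2 and 0.0331% for Aqp4. So did the neuronal gene Syp, at most 1.5% (30.8 CPM in the astrocyte-labelled libraries), and less so Snap25, at most 6.99% (4.89 CPM), while the list of 10 neuron markers had 4 called higher and 5 lower there. Which cell type carried the Stmn4 and Mapt reads was not tested.

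Stmn3 was read only in the astrocyte-labelled libraries, at 5.09, 5.90 and 4.83 CPM (165, 171 and 128 reads). Set against the 3-count limit in each tumour library, it was at least 40.8-fold higher than in BAL101553 and at least 35.9-fold higher than in control libraries. It passed the filter on low counts through this group alone, so its call was fixed by the filter. Map2 stood at 198, 175 and 195 CPM, with a log2 fold change of 5.15 ± 0.35 (SE).

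Stmn1 was also higher, at 492, 512 and 473 CPM (log2 fold change 2.50 ± 0.12, SE), although the 15 genes of dividing cells were all called lower there and summed to 137 to 139 CPM. The end-binding genes moved in opposite directions: Mapre3 stood at 97.8, 95.9 and 93.8 CPM (1.67 ± 0.08), and Mapre1 at 114, 106 and 110 CPM (-1.02 ± 0.09). No member's groups overlapped in this comparison, as was so for 87.8% of all genes.

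Besides Mapre1, the members lower in the astrocyte-labelled libraries were Map1b, Map4 and Stmn2. Map1b stood at 77.8, 70.0 and 62.1 CPM (log2 fold change -2.20 ± 0.11, SE) and Map4 at 327, 301 and 278 CPM (-0.78 ± 0.09). Stmn2 stood at 3.79, 3.55 and 4.64 CPM (-2.20 ± 0.48, adjusted p = 0.00266 by edgeR), all below the lowest tumour value of 6.75 CPM. Per kilobase, Stmn1 (256 ± 10.2 CPM per kb, SD, n = 3) and Stmn4 (235 ± 23.5) led the astrocyte-labelled libraries and overlapped, followed by Mapt (85.9 ± 10.6), Mapre3 (27.7 ± 0.576), Map4 (19.9 ± 1.63), Mapre1 (14.1 ± 0.495) and Map2 (11.5 ± 0.758). Stmn3 (4.64 ± 0.490) and Map1b (4.42 ± 0.498) overlapped, and Stmn2 was last (0.713 ± 0.102). Stathmin RNA was 51.6% Stmn1 and 47.3% Stmn4, and Mapt made up 73.1% of its family and Mapre3 66.3% of the end-binding pair.

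**Figure D5:**
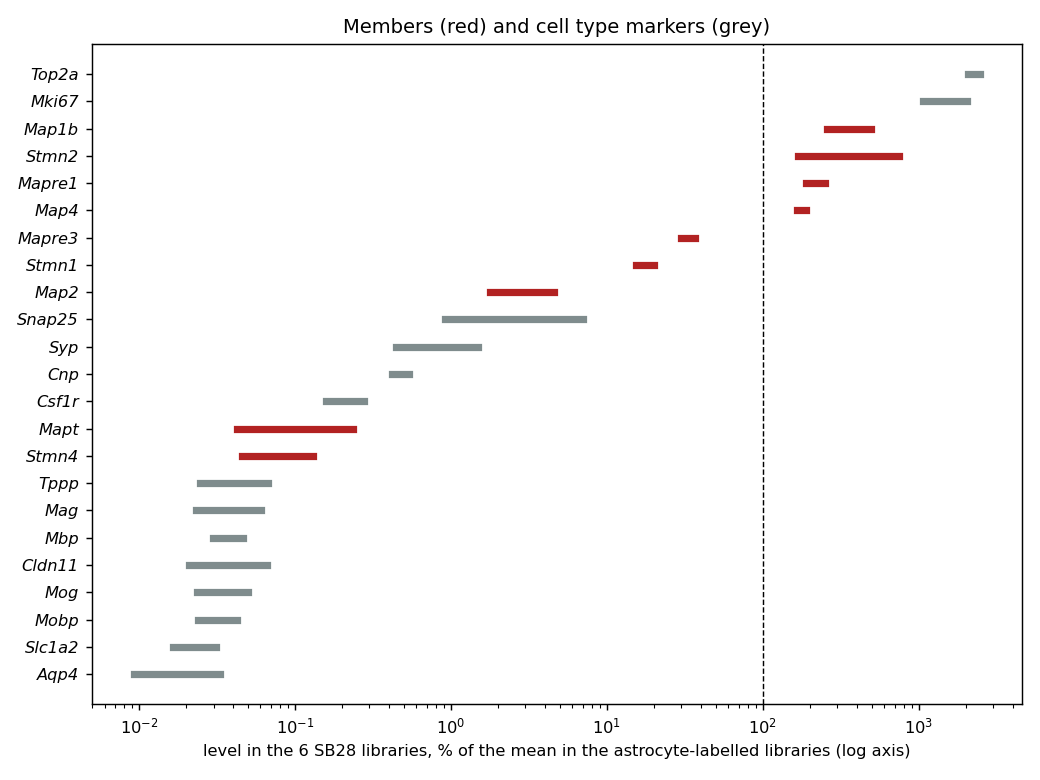
Level of members (red) and cell type markers (grey) in the 6 SB28 libraries as a percentage of their mean in the astrocyte-labelled libraries, on a log axis; each bar runs from the lowest to the highest tumour library and the dashed line marks 100%. Stmn4 and Mapt lie under 0.3%, among glial and myelin genes, Stmn2, Map1b, Map4 and Mapre1 lie right of the line, and Stmn3, at 0 in the tumour, is not drawn.

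Of the other microtubule genes, 82 were tested in the astrocyte-labelled comparison, and 49 were called higher and 24 lower. That is 89.0%, against 85.1% of all genes (46.3% higher and 38.9% lower). Of these 82 genes, 11 were not tested between the tumour groups and passed the filter once the astrocyte-labelled libraries were included, 5 of them in the lattice-binding list. Among genes tested in both comparisons, the lattice-binding list had 9 of 12 called higher and 1 lower, with a median log2 fold change of 1.59. The 4 other lists had medians between 0.03 and 0.49. Of all 12550 such genes, 4390 were called higher and 5954 lower, and their median was -0.24.

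The genes with the most similar pattern were found by Pearson's r of log2 CPM over the 9 libraries among 15408 genes. The libraries form 3 groups and the astrocyte-labelled ones stand far from the rest, so r mainly carries that contrast. The closest were Apbb1, Kcnj10 and Sez6l2 for Stmn1 (r from 0.9995 to 0.9989), Nipa1, Slc9a9 and Cmtm5 for Stmn4 (0.9996 to 0.9990), Sppl2b, Arrb1 and Zfp672 for Mapt (0.9989 to 0.9987) and Tmem205, Mad2l2 and Aamdc for Map2 (0.9977 to 0.9969). For Stmn3, which is at 0 in 6 libraries, Nodal, Rasal1 and Tmem132d had the highest r. Among members higher in the tumour, Sar1a, Sub1 and Psme3 were closest to Mapre1 (0.9996 to 0.9979), Pdzd8, Mms19 and Trrap to Map1b (0.9960 to 0.9950), Clasp1, Katnbl1 and Gtpbp10 to Map4 (0.9955 to 0.9941), and Id1, Cbln1 and Hdac3 to Stmn2 (0.9834 to 0.9759). Tmprss5, Cyp2j12 and Tshr were closest to Mapre3 (0.9993 to 0.9987).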

How the data were processed

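RNA of 3 control, 3 BAL101553 and 3 astrocyte-labelled libraries was sequenced. The study describes stranded libraries with 50-base reads but no astrocyte samples, and its description is applied here to all 9 libraries. The authors aligned reads to mm10 with TopHat and deposited raw counts per gene; per the labels HTSeq 0.6.1 was used, while the annotation and the strand setting are not given in the sources used here. Groups came from the labels. Counts were tested with edgeR 4.0.16 (filterByExpr, TMM, quasi-likelihood fit, Benjamini-Hochberg over all genes, threshold 0.05) in R 4.3.3, with no covariates and only the libraries compared; log2 CPM for pattern similarity used a prior count of 2. The pipeline was checked on simulated counts. Gene positions and exon lengths came from GENCODE M21 (GRCm38, the build of mm10), matched by symbol for 23350 rows and by older symbol for 678. The members and gene lists were chosen with earlier results of these data known. Genes named were the members, list genes called in BAL101553 against control whose groups did not overlap (at most 6 of lowest p per list), marker genes, and the 3 genes most similar to each member. Alternatives were DESeq2 1.42.0, limma 3.58.1, edgeR's exact test, other scalings and filters, a model of all 9 libraries, a replicate block, a length and GC offset, and leaving libraries out. Libraries of 1 group differed by more than counting noise (chi-square per degree of freedom 14.3 to 64.9). The table also holds 27 rows whose gene names had been turned into dates.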

Additional observations from a re-analysis of the deposited data

How the results depend on the processing

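In BAL101553 against control, 0 members were called in each of the 26 alternatives except the length and GC offset, which called 1 (Mapre1, -0.35, adjusted p = 0.0400 by edgeR). The number of all genes called was 1860, and 2832 with DESeq2, 3022 with all 9 libraries in 1 model, 193 to 1712 without 1 library and 1 to 1757 without 1 library in both groups; among fits without 1 library the lowest counts came without control replicate 3 (193) and control replicate 1 (458). The other microtubule genes called numbered 9, and 15 with DESeq2, 16 with all 9 libraries in 1 model, 3 to 8 without 1 library and 0 to 10 without 1 in both groups. Directions that turned were all of values that did not pass the test. Total library size gave 0.04 for Stmn1, 0.05 for Map4 and 0.04 for Mapre3, and the length and GC offset gave 0.07 for Stmn1. Without single libraries, in 1 group or in both, the log2 fold change ran from -0.18 to 0.10 for Stmn1, -0.90 to 0.50 for Stmn2, -0.29 to 0.67 for Stmn4, -1.11 to 0.16 for Map2, -0.10 to 0.02 for Map4, -1.10 to 0.19 for Mapt, -0.13 to 0.09 for Mapre3 and 0.11 to 0.57 for Map1b. The cause was not tested. The stathmin to tubulin ratio kept its direction without any 1 library (0.48 to 0.69 on the log2 scale; this check was chosen after seeing the data). In astrocytes against BAL101553 no member with a recomputed fold change (all but Stmn3) changed direction or lost its call; Stmn3, Stmn4 and Mapt were not tested when 10 counts were required in every library. Libraries with the same replicate number had correlations of 0.14, 0.01 and 0.15 for BAL101553 and control, beside -0.19 to 0.08 for different numbers. For astrocytes and BAL101553 they were -0.00, 0.06 and 0.03, beside -0.06 to 0.03. These low values do not settle whether replicate numbers pair the libraries. With the replicate block 864 genes were called higher and 507 lower (1371 in all), and 0 members. Of the other microtubule genes, Apc, Atat1 and Pak1 lost their calls with the block (adjusted p = 0.0609, 0.0718 and 0.0585 by edgeR).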
